A study of Homo sapiens with 4 samples.

Results

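The genes described here are 10 TGF-beta and BMP response genes, chosen by symbol as ID1, ID2, ID3, ID4, SMAD6, SMAD7, SKIL, BAMBI, BMP4 and TGFB2 among the 60048 human genes of the deposited table. Each symbol had exactly 1 row. Nascent RNA was captured and sequenced by EU-seq, in which cells take up the uridine analogue 5-ethynyl uridine and only RNA made during the labelling is pulled down. All 4 libraries came from HCT116 colorectal carcinoma cells of the genotype RAD21-mAC, a degron tag on the cohesin subunit RAD21 that both groups carried. Control cells received DMSO (2 libraries), and auxin cells were kept for 3 h in 0.5 mM indole-3-acetic acid, which depletes RAD21 (2 libraries). EU was present at 0.5 mM for 20 min in both groups. The labels do not say whether replicates were separate cultures, so the spread between these libraries may be technical. Each limma p-value draws on that spread in genes of like signal more than in the gene itself.

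TGF-beta and BMPs are secreted ligands that bring together type I and type II receptor kinases at the cell surface. The receptors phosphorylate SMAD proteins, which join SMAD4, enter the nucleus and bind DNA. Among the fastest responding genes are the ID genes, whose proteins lack a DNA-binding region and hold other helix-loop-helix factors off DNA, and a set of inhibitors that feed back on the pathway: SMAD6, SMAD7, SKIL and BAMBI. In the intestine, BMP signals rise towards the differentiated surface and are kept low around the stem cells. HCT116 is known to carry inactivating frameshift mutations in the receptor gene TGFBR2, so TGF-beta itself is a poor stimulus in this line. No ligand was added according to the labels.

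BAMBI, a membrane protein that resembles a type I receptor without a kinase and blocks signalling, was lower after auxin and was the only 1 of the 9 members tested that passed the threshold. Values are the deposited signal brought to a common scale between libraries, and the threshold is a limma p adjusted by Benjamini-Hochberg over all genes tested, under 0.05. The nascent signal of BAMBI was 618 and 488 in control replicates 1 and 2, and 238 and 179 in auxin replicates 1 and 2. Both auxin libraries lay below both control libraries. In bulk RNA, fewer cells transcribing a gene and less RNA per cell cannot be told apart. The mean over the 2 libraries was 553 ± 91.8 (SD) in control and 208 ± 42.2 (SD) with auxin. The log2 fold change was -1.41 ± 0.24 (SE), with a 95% interval of -1.93 to -0.88 (limma adjusted p = 0.0286). In the whole table, 289 of 39464 tested genes, or 0.732%, passed the same threshold (0.332% higher and 0.4% lower). Scaling left the estimate between -1.43 and -1.37, and leaving out each library in turn left it between -1.61 and -1.20. The call was lost when either control library was left out, where a single control library remains. It was also lost on the deposited scale (limma adjusted p = 0.208) and without the intensity trend in limma (0.49).

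**Figure D1:**
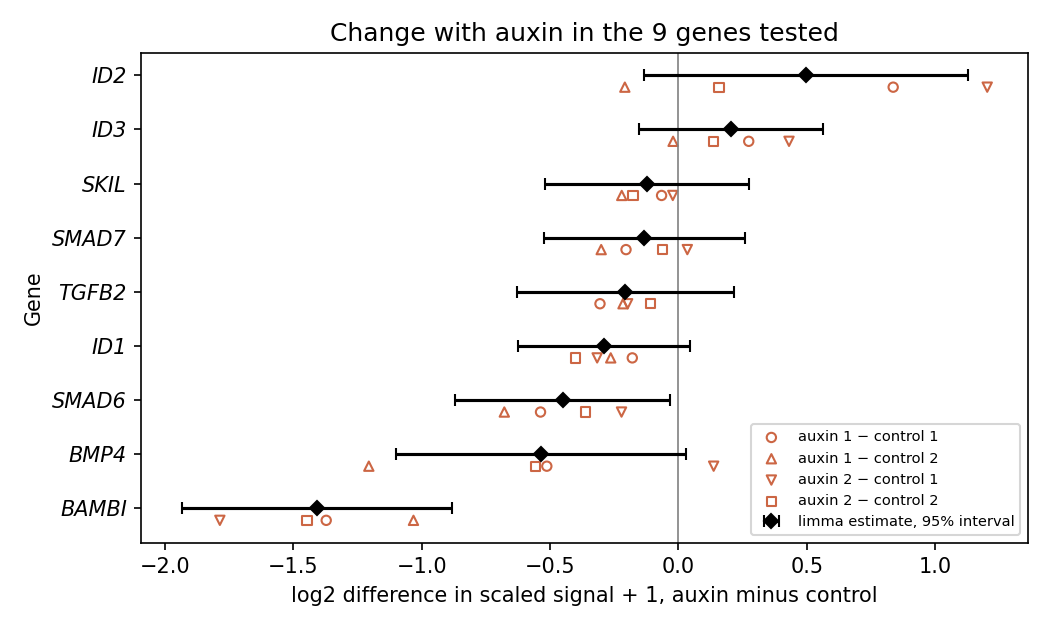
Log2 difference in scaled signal (auxin minus control, horizontal axis) for the 9 members tested; diamonds are limma estimates with 95% intervals, and open symbols are the 4 single auxin-control library pairs, which share libraries. The interval of BAMBI, -1.93 to -0.88, lies well below 0, and those of the other members except SMAD6 cross 0.

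The promoter of BAMBI is shown because it is the gene that passed the test, that of SMAD6 because it held the SMAD box, and that of ID1 because this member carried the most signal per length. Each is the 250 bases before the gene's start in RefSeq (GRCh38.p14), written 5′ to 3′ on the gene's plus strand, with matches to the SMAD box, its short form or the GC-rich BMP-SMAD site in capitals.
BAMBI, chr10:28677271-28677520: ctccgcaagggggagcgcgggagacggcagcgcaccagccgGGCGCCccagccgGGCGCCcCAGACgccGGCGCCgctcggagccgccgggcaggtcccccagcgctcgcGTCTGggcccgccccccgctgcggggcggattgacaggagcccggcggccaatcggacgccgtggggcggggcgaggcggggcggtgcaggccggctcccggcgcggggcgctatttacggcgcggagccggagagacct
SMAD6, chr15:66701986-66702235: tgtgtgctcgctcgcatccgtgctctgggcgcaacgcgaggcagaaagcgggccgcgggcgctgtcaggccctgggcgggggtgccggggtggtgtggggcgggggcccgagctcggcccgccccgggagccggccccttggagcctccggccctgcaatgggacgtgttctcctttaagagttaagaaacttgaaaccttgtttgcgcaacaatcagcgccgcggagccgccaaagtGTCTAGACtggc
ID1, chr20:31605039-31605288: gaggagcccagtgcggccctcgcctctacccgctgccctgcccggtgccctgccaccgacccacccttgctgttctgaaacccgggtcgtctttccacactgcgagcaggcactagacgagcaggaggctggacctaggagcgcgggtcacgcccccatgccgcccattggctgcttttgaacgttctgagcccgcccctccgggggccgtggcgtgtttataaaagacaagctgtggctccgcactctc

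All 10 members matched the promoter table, and letters were searched on both strands of 1 window per gene, the first start listed where there were several (SMAD7 and BMP4). The SMAD box GTCTAGAC, the palindrome bound by SMAD3 and SMAD4, was found in SMAD6 alone among the members and in 0.176% of 27305 promoters. The short form GTCTG was found in 7 of 10 members, against 37.8% of all promoters. The GC-rich site GGCGCC, a core of BMP-responsive elements, was found in SKIL, BAMBI and BMP4, against 16.1% of all promoters. BAMBI held 3 copies of it, as did 0.52% of all promoters at this number or more. Its window was 81.2% G and C, and among the 874 promoters of at least 80% the share with 3 or more copies was 5.26%. ID1 and ID2 held none of these letters in this window. Of the other motifs searched, TATAAA was found in ID1, ID4 and TGFB2 (11.1% of all promoters) and the cyclic AMP element TGACGTCA in SKIL (1.77%). The AP-1 site TGANTCA (6.60%) and a CTCF core motif (0.0403%) were found in none of the 10 windows. GTCTAGAC does not contain GTCTG, and no match is more than letters.

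The table gives each gene a length equal to its whole span, so levels were set against each other per kb of span. Whether introns were counted is not stated, and the order of levels below holds for this length only. In control, ID1 had the highest level, at 2076 and 2200.3 per kb in replicates 1 and 2, followed by ID3 at 1467 and 1799. BMP4 came next at 380 and 614 per kb, and ID2 at 296 and 610.5. These last values overlapped, so the order of BMP4 and ID2 was within their spread. BAMBI lay at 114 and 90.2 per kb, SMAD7 at 34.8 and 37.2, SKIL at 20.7 and 23.0, SMAD6 at 12.6 and 13.9, and TGFB2 at 6.24 and 5.86. Each of these stood apart from its neighbours in both control libraries. ID4 was lowest, at 2.63 and 1.06 per kb. Among tested protein-coding genes, the control level per kb of ID1 was above 99.9% and that of TGFB2 above 21.5%. The compact ID genes, BMP4 and BAMBI have short spans and the others long ones.

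With auxin the order changed in places. ID3, at 1774 and 1977 per kb, and ID1, at 1833 and 1667, now overlapped. ID2 now stood above BMP4, at 528 and 681 against 266 and 417 per kb, with no overlap between them. BAMBI, at 44.0 and 33.0 per kb, came to overlap SMAD7, at 30.2 and 35.7. The order of SKIL, SMAD6, TGFB2 and ID4 was the same as in control.

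**Figure D2:**
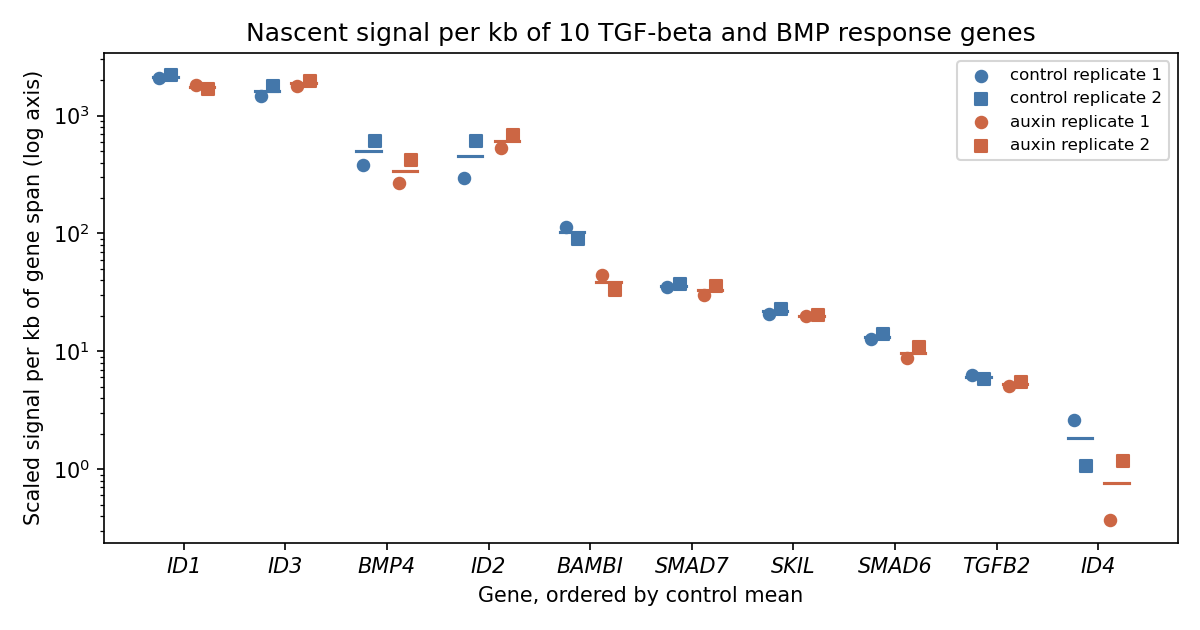
Scaled nascent signal per kb of gene span (log axis) for the 10 members, ordered by their control mean; points are single libraries and bars are means of 2. ID1 and ID3 lie highest, between 1467 and 2200.3 per kb, ID4 lies lowest, and BAMBI is the member whose auxin points fall clear of its control points by the widest gap.

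Over the 9 members tested, 7 estimates were negative and 2 positive, with a median log2 fold change of -0.21, against 0.0089 over all genes tested. At an unadjusted p under 0.05 there were 2 members, BAMBI and SMAD6, both lower; 10.2% of all tested genes met this (4.75% higher and 5.47% lower). In 5 members (ID1, SMAD6, SKIL, BAMBI and TGFB2) the groups did not overlap, and auxin was the lower group in each. Groups did not overlap in 38.2% of all tested genes. ID4 did not pass the filter on low values: its signal was 12.7 and 5.12 in control and 1.78 and 5.61 in auxin, and no test was made.

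No ID gene passed the test, and the estimates of the 3 tested had both signs. ID1 (ENSG00000125968, chromosome 20, 31605283 to 31606515, plus strand) had a signal of 2559 and 2713 in control and 2259.6 and 2055 in auxin. Its auxin values lay below its control values without overlap, at a mean of 2157 ± 145 against 2636 ± 109 (SD, n = 2 each). This log2 fold change of -0.29 (SE 0.15, 95% interval -0.63 to 0.045) did not pass the test (limma adjusted p = 0.582).

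ID3 (ENSG00000117318, chromosome 1, 23557926 to 23559501, minus strand) stood at 2312 and 2836 in control and 2795 and 3116 in auxin. The groups overlapped, because control replicate 2 lay above auxin replicate 1. The log2 fold change was 0.20 (SE 0.16, 95% interval -0.15 to 0.56, limma adjusted p = 0.795). Since ID1 and ID3 differed in sign, their ratio within a library, which no scaling changes, was also computed, a choice made after the values were seen. ID3 over ID1 was 0.903 and 1.05 in control and 1.24 and 1.52 in auxin, higher in both auxin libraries. The two-sided exact permutation p was 0.333, the smallest that 2 libraries against 2 allow.

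ID2 (ENSG00000115738, chromosome 2, 8678845 to 8684453, plus strand) had the largest standard error of the 9 members tested. Its signal was 1659 and 3424 in control and 2963 and 3819 in auxin. Control replicate 1 stood apart on the low side, and the other control library lay between the auxin libraries. The log2 fold change of 0.50 (SE 0.28, 95% interval -0.13 to 1.13, limma adjusted p = 0.639) became -0.016 with control replicate 1 left out and 1.02 with control replicate 2 left out. ID2-AS1, a lncRNA on the minus strand that starts 33 bases before the span of ID2, showed the same order of libraries, with 202 and 415 in control and 281 and 458 in auxin (log2 fold change 0.31, limma adjusted p = 0.888).

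The inhibitory SMADs gave lower or level estimates. SMAD6 (ENSG00000137834, chromosome 15, 66702236 to 66782849, plus strand), which acts mainly against BMP receptors, had a signal of 1019 and 1124 in control and 702 and 874 in auxin. Both auxin libraries lay below both control libraries, at 788 ± 121 against 1071 ± 74.0 (SD, n = 2 each). In limma, SMAD6 had a log2 fold change of -0.45 (SE 0.19, 95% interval -0.87 to -0.031), with a limma unadjusted p of 0.0376 and an adjusted p of 0.434.

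SMAD7 (ENSG00000101665, chromosome 18, 48919853 to 48952052, minus strand), which recruits ubiquitin ligases to TGF-beta receptors, stood at 1121.5 and 1199 in control and 973 and 1149 in auxin. Auxin replicate 2 lay between the control libraries, so the groups overlapped. The log2 fold change was -0.13 (SE 0.18, 95% interval -0.52 to 0.26, limma adjusted p = 0.917).

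SKIL (ENSG00000136603, chromosome 3, 170357715 to 170396835, plus strand) encodes SnoN, a corepressor that binds SMAD complexes on DNA. It was measured at 809.5 and 902 in control and 773 and 797 in auxin. The groups were next to each other without overlapping, and the log2 fold change was -0.12 (SE 0.18, 95% interval -0.52 to 0.28, limma adjusted p = 0.933).

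The ligand BMP4 (ENSG00000125378, chromosome 14, 53949736 to 53956825, minus strand) had a signal of 2692 and 4352 in control and 1887 and 2960.1 in auxin. Replicate 2 was the higher library in both groups, and auxin replicate 2 lay above control replicate 1. The log2 fold change was -0.53 (SE 0.25, 95% interval -1.10 to 0.029, limma adjusted p = 0.522). It ranged from -0.87 without control replicate 1 to -0.19 without control replicate 2, and was -0.86 without auxin replicate 2. Between libraries of the same replicate number, the log2 difference was -0.51 for replicate 1 and -0.56 for replicate 2. Whether a number marks a pair is not stated, and the fit with the replicate number as a block is given at the end. The lncRNA gene AL138479.2 overlaps the 5′ part of BMP4 on the other strand and was likewise highest in control replicate 2 and lowest in auxin replicate 1, at 924 and 1267 in control and 605 and 905 in auxin (log2 fold change -0.55, limma adjusted p = 0.461). Whether the deposited values separate strands is not stated, so signal shared by the pair cannot be told apart.

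TGFB2 (ENSG00000092969, chromosome 1, 218345336 to 218444619, plus strand), a TGF-beta ligand, had a signal of 619.6 and 582 in control and 501 and 540.1 in auxin. The auxin libraries were lower without overlap, and the log2 fold change was -0.21 (SE 0.19, 95% interval -0.63 to 0.21, limma adjusted p = 0.846). TGFB2-AS1, which overlaps its first bases on the minus strand, carried 30.5 and 40.9 in control and 17.8 and 31.4 in auxin.

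**Figure D3:**
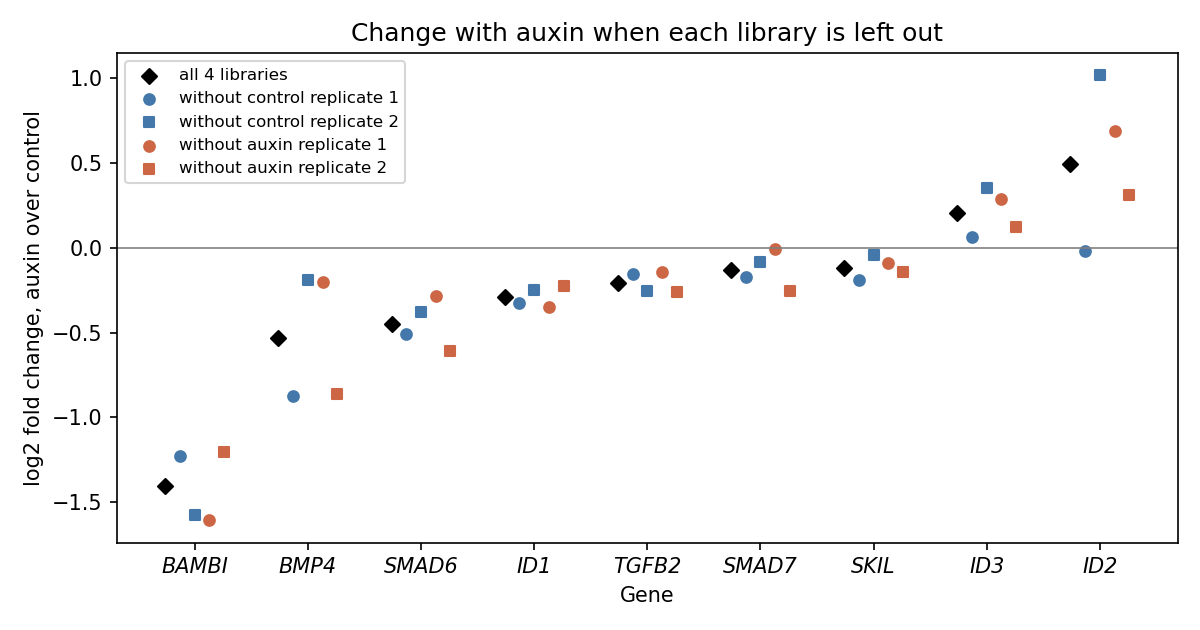
Log2 fold change of the 9 members tested with all 4 libraries (diamonds) and with each library left out in turn. BAMBI stays between -1.61 and -1.20, and ID2 runs from -0.016 without control replicate 1 to 1.02 without control replicate 2.

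Genes around BAMBI (ENSG00000095739, chromosome 10, 28677521 to 28682932, plus strand) were examined after its values were seen. The nearest tested genes were the pseudogene TPRKBP1, 18053 bases towards lower coordinates (log2 fold change -0.23, limma adjusted p = 0.965), and the lncRNA LINC01517, 60573 bases towards higher coordinates. LINC01517 carried 494 and 485 in control and 432 and 474 in auxin, a log2 fold change of -0.11 (limma adjusted p = 0.95). Among 8 tested genes within 500 kb of the BAMBI start, limma called 0, and 0 had an unadjusted p under 0.05. Among 19 tested genes within 1000 kb it called 2, or 10.5%, against 0.732% of all genes tested. An unadjusted p under 0.05, met by 10.2% of all genes tested, was found in 5, all lower with auxin. They were MKX, MKX-AS1, ARMC4, SVIL and MIR938. MKX-AS1 starts beside MKX (933 and 931 kb from the BAMBI start) and MIR938 lies within the span of SVIL, so these are not 5 separate loci. Of the 19 estimates 16 were negative, against 48.7% of all genes tested, with genes at a shared locus counted separately. Signs were also uneven around some other members in windows of 1000 kb. There were 4 positive and 11 negative around ID4, and 31 positive and 16 negative around ID1.

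Both called neighbours lay towards lower coordinates and fell with auxin. MKX, a homeobox gene known from tendon development, had its start 931 kb from that of BAMBI and a signal of 848 and 988 in control and 268 and 262 in auxin (limma log2 fold change -1.79 ± 0.20 SE, adjusted p = 0.00293). ARMC4, a gene of motile cilia, had its start 696 kb away. Its signal was 631.5 and 631.4 in control and 267 and 266 in auxin (limma log2 fold change -1.24 ± 0.20 SE, adjusted p = 0.0221). In both genes the auxin libraries were below the control libraries and close to each other. The call of ARMC4 was lost without control replicate 2 (limma adjusted p = 0.0741) and on the deposited scale (0.481), and neither gene was called without the intensity trend (0.449 for MKX and 0.49 for ARMC4). On the side of higher coordinates none was called: SVIL had a log2 fold change of -0.64 (limma adjusted p = 0.0659) and MIR938, at low signal, one of -1.54 (0.368). Genes lying between the called neighbours and BAMBI were not called either: MPP7 had a log2 fold change of -0.39 (limma adjusted p = 0.592) and WAC one of -0.048 (0.967).

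**Figure D4:**
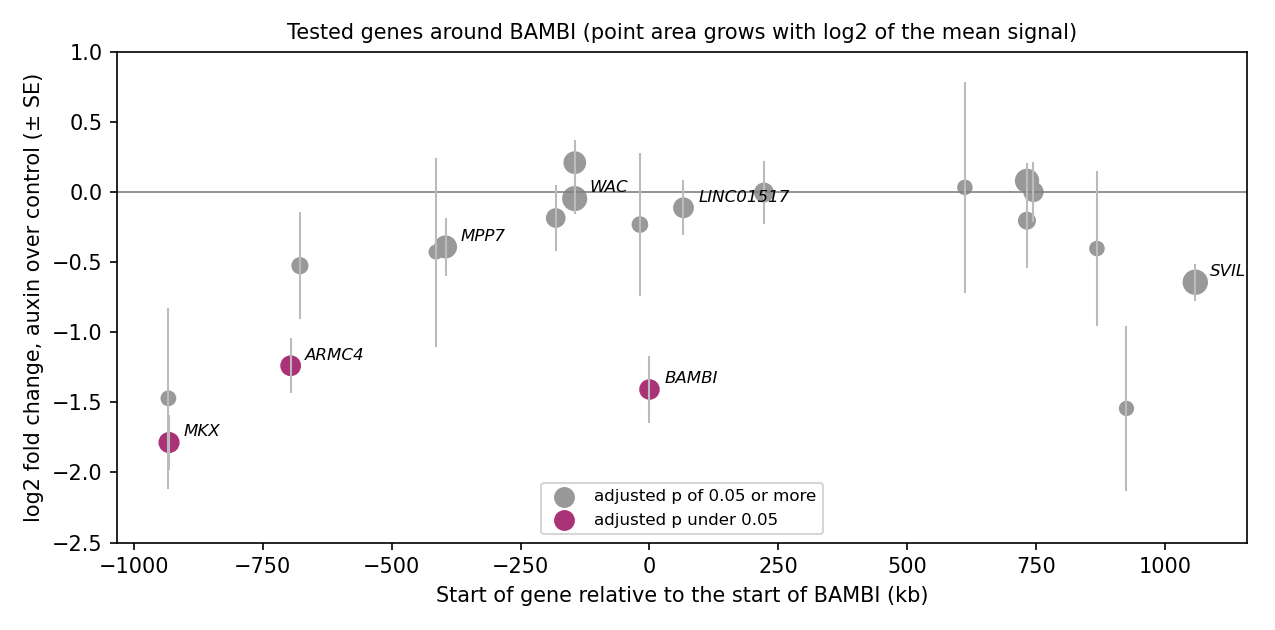
Log2 fold change (± SE) of tested genes whose spans reach within 1000 kb of the BAMBI start, against the distance of their start from that of BAMBI; point area grows with the mean signal. MKX (-1.79), ARMC4 (-1.24) and BAMBI (-1.41) passed the threshold, while WAC (-0.048) and LINC01517 (-0.11), which lie nearer to BAMBI than these, were closer to 0.

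For the other members, the same windows of 1000 kb held between 13 and 58 tested genes. Limma called 1 of them, AC011747.1 near ID2, and none around ID1, ID3, ID4, SMAD6, SMAD7, SKIL, BMP4 or TGFB2, where between 1 and 9 genes had an unadjusted p under 0.05. Of the 20 nearest tested neighbours on either side of the members, limma called 0, against 0.732% of all genes tested. At an unadjusted p under 0.05 there were 3, against 10.2% of all genes tested. Beside the 9 tested members, 11 of 18 had the sign of the member. The first of the 3, the lncRNA AC110048.2, 77453 bases beyond SMAD6, went from 91.5 and 76.7 in control to 175 and 221 in auxin (log2 fold change 1.22, limma adjusted p = 0.0861). The gene next to SMAD7 towards higher coordinates, AC016866.3, went from 39.0 and 15.3 to 75.9 and 104 (log2 fold change 1.82, limma adjusted p = 0.135). RRP15, a ribosome biogenesis gene beside TGFB2, went from 6095 and 7222 to 5354 and 5190.1 (log2 fold change -0.33, limma adjusted p = 0.427). The lncRNA and the SMAD7 neighbour were opposite in sign to the member beside them, and RRP15 had the same sign.

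The other neighbours had smaller or less certain estimates. Those beside ID1 were AL110115.2, at a signal of 14.4 and 15.3 in control and 36.6 and 25.8 in auxin (limma adjusted p = 0.52), and MIR3193 (log2 fold change -0.46). Beside ID2 and ID2-AS1, KIDINS220 had 0.021. AL021154.1 (0.094) and AL450043.1 (0.24) flank ID3, and LNC-LBCS (-0.024) and AL008627.1 (-0.45) flank ID4. LINC01169 (0.32) lies before SMAD6 and CTIF (0.22) before SMAD7. AC073288.1 (-0.095) and AC073288.2 (-0.13) flank SKIL, and LINC02869 (0.29) lies beyond TGFB2. Around BMP4, LINC02331 had 0.41 and ATP5F1CP1 -0.13. LINC02331, like BMP4, was higher in replicate 2 of both groups, at 1784 and 3949 in control and 2424 and 5159 in auxin. The overlapping lncRNA genes AC013564.1, within SMAD6, and TGFB2-OT1, within TGFB2, did not pass the filter.

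The rest of the pathway was read from 66 further genes in 6 lists by role, of which 62 passed the filter. Of these, 22 estimates were positive and 40 negative (64.5%, against 48.7% of all genes tested), with a median log2 fold change of -0.073. Limma called 3 genes (TGFB3, SMURF2 and CCN2), or 2 higher and 1 lower, against 0.732% of all genes tested. None of them was called on the deposited scale or without the intensity trend. At an unadjusted p under 0.05 there were 8 higher and 10 lower, against 4.75% and 5.47% of all genes tested. The same shares apply to the lists below, which were chosen with earlier results known.

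Among the ligands, 9 of 11 were tested and 1 was called. TGFB3, the third TGF-beta isoform, went from 726 and 625 in control to 1345 and 1316 in auxin, a rise in both libraries (limma log2 fold change 0.98 ± 0.18 SE, adjusted p = 0.039). The call was lost without control replicate 2 (0.124), without auxin replicate 1 (0.0619) and without auxin replicate 2 (0.0612). TGFB3 thus differed in sign from TGFB2 and from TGFB1, which had 2749 and 2679 in control and 2375 and 2424 in auxin (log2 fold change -0.18, limma adjusted p = 0.808). The difference between the isoforms was not tested. The BMP7 estimate was -0.30 (limma adjusted p = 0.557) and that of BMP6 -0.17 (0.866). BMP2 and INHBA were at or near 0 in every library.

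No receptor was called: all 12 were tested, 5 estimates were positive and 7 negative, and 3 had an unadjusted p under 0.05. The smallest p belonged to BMPR2, the type II BMP receptor. Its signal was 6263 and 4760.3 in control and 8962 and 8610.3 in auxin, higher in both auxin libraries (limma log2 fold change 0.69 ± 0.15 SE, adjusted p = 0.0861). TGFBR2 was transcribed, at 11956 and 16807 in control and 11230 and 17042 in auxin, with a log2 fold change of -0.035 (limma adjusted p = 0.99).

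Of the 6 SMADs that carry the signal, all were tested, limma called 0 and 3 had an unadjusted p under 0.05. Of the estimates 1 was positive and 5 were negative, with a median of -0.20. The positive one was SMAD3, at 38723 and 45567 in control and 45471 and 66326 in auxin, where the groups overlapped. Its log2 fold change was 0.39 (limma unadjusted p = 0.0338, adjusted p = 0.418). SMAD9, a BMP-responsive SMAD, had the smallest p, at 568 and 543 in control and 409 and 379.5 in auxin (limma log2 fold change -0.49 ± 0.19 SE, adjusted p = 0.393). SMAD4, the shared partner, had a log2 fold change of -0.17 (limma adjusted p = 0.792).

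Among 10 SMAD regulators 1 was called, and 4 estimates were positive and 6 negative. At an unadjusted p under 0.05 there were 1 higher and 3 lower. SMURF2, a ubiquitin ligase that SMAD7 brings to the receptors, went from 47959 and 48948 in control to 32560 and 30836 in auxin (limma log2 fold change -0.61 ± 0.093 SE, adjusted p = 0.0172). Its libraries agreed closely within each group, though the adjusted p was 0.0742 without control replicate 2 and 0.0543 without the filter on low values. The related ligase SMURF1 had an estimate of -0.026 (limma adjusted p = 0.989). NEDD4L, opposite in sign to SMURF2, went from 8726 and 9943 in control to 12124 and 19067 in auxin (log2 fold change 0.71, limma adjusted p = 0.156).

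Secreted antagonists and latency proteins had 9 of 11 genes tested and 0 called by limma, with 1 at an unadjusted p under 0.05. That gene, the BMP antagonist NOG, was close to the lower limit of measurement, at 25.4 and 13.3 in control and 9.81 and 2.25 in auxin (limma log2 fold change -1.71 ± 0.77 SE, adjusted p = 0.488). The estimate was -2.60 without auxin replicate 1, -0.84 without auxin replicate 2 and -0.88 with a pseudocount of 10.

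Of 16 target genes 1 was called. CCN2, a matrix-associated protein gene induced by TGF-beta and by YAP, went from 612 and 906 in control to 1604 and 1823 in auxin (limma log2 fold change 1.20 ± 0.21 SE, adjusted p = 0.0347; 0.069 without control replicate 1). KLF10 and KLF11, early TGF-beta response genes, had estimates of -0.45 (limma adjusted p = 0.306) and -0.80 (0.13). CDKN1A, the cell cycle inhibitor p21, and the homeobox gene MSX2 had estimates of 0.53 (0.102) and 0.86 (0.173). The target list thus held estimates of both signs, 7 positive and 9 negative.

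**Figure D5:**
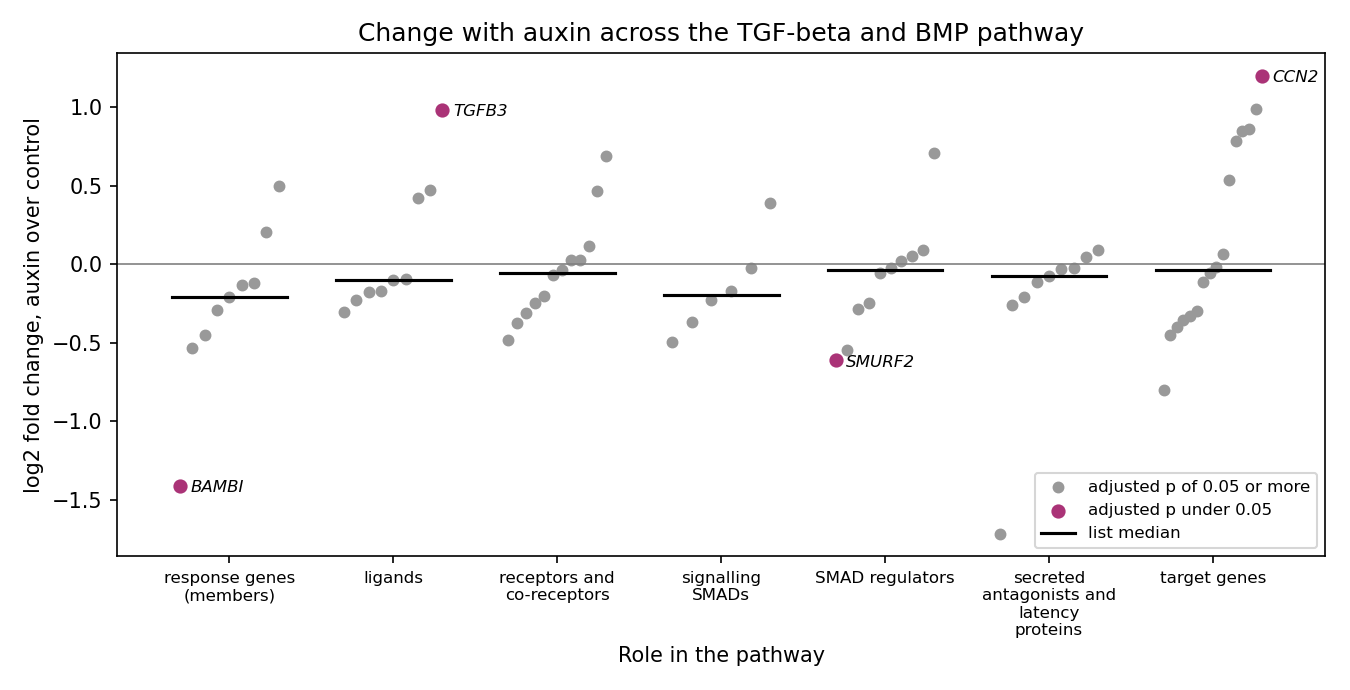
Log2 fold change with auxin for the members and for 6 lists of other pathway genes by role; each point is a gene, and black bars are list medians. TGFB3 (0.98) and CCN2 (1.20) passed the threshold above 0, and BAMBI (-1.41) and SMURF2 (-0.61) below 0, while list medians lay between -0.21 and -0.036.

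The libraries held totals between 61135244 and 93113007 on the deposited scale, and the depth in reads is unknown. All 10 markers of colorectal epithelium were above 0 in every library, and their summed signal was 59183 to 65442 in control and 58352 to 60538 in auxin. All 4 endothelial and all 5 leukocyte markers below were also above 0 in every library, so this count does not set the lists apart. Some epithelial markers were low: CDX1 was at 17.0 and 9.21 in control and 12.5 and 6.74 in auxin. KRT20 was at 30.5 and 42.0 in control and 25.0 and 29.2 in auxin. The epithelial markers had estimates of both signs: CDH1 was at 11060 and 11199 in control and 16109 and 16554 in auxin (log2 fold change 0.55, limma adjusted p = 0.0578), and KRT19 had -0.37, EPCAM -0.29 and KRT8 -0.26. Of 6 fibroblast markers, 4 were above 0 in every library, and their sum was 654 to 808 in control and 947 to 1091 in auxin, most of it COL1A1. COL1A1 was at 577 and 732 in control and 893 and 998 in auxin. LUM and COL1A2 were at or near 0, and COL3A1 was at 13.3 or less in every library. DCN was at 16.1 and 26.6 in control and 20.5 and 22.5 in auxin. PDGFRB was at 54.2 and 36.8 in control and 19.6 and 52.8 in auxin. The summed signal of 4 endothelial markers was 602 to 675 in control and 701 to 835 in auxin. That of 5 leukocyte markers was 2787 to 2971 and 2762 to 2849, most of it CSF1R and CD68, with PTPRC below 40 in every library. No marker passed the test, and the part of these sums in the results above was not tested.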

How the data were processed

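A single table with a scaled signal for each gene in each library, and the span of each gene, was deposited by the authors. Trimmomatic 0.39, Bowtie2 2.4.5, deepTools 3.5.1 and the builds hg38 and dm6 are named in the submitters' processing notes, with no role. The counter, annotation and scaling are not given in the sources used here. Fly S2 RNA was added before capture, per the labels' protocols, and whether it set the scale is not stated. In each library, values of at most 20 steps fell on multiples of a smallest step (tolerance 0.021), but single steps were rarer than double or triple ones, so steps were not taken as reads and no count model was run. The control column with a misspelling in its name was read as control replicate 2, by its number. Of 37844 symbols matched by chromosome to RefSeq GRCh38, 99.8% overlapped the RefSeq gene and 20020 starts lay 1 base lower, so starts are printed 1 higher.

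A gene was tested if at least 2 libraries reached the value equal to 10 in a library of median total and the sum was at least 15. Scaling used trimmed means of M-values (divisors 0.999, 1.01, 0.816 and 1.21), which removes any change in total nascent RNA. Log2(value + 1) was fitted with limma 3.58.1 in R 4.3.3 (intensity trend, two-sided, Benjamini-Hochberg over 39464 genes, threshold 0.05); fold changes on this scale understate those of low genes. Limma draws the variance of each gene towards the trend across genes, here with 8.23 prior degrees of freedom. With 2 libraries a group, each SE, interval and p therefore rests more on genes of like signal than on that gene's own replicates. The procedure was also run on simulated data, with libraries drawn independently and spreads of the form that limma assumes. That simulation left out the correlation of replicate differences between groups given below, so it cannot show how the procedure behaves under it. Python 3.11.15 with matplotlib 3.10.9 and pandas 2.3.3 handled tables and figures.

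The members, gene lists and motifs were chosen with earlier results of these data known. All members were named, with the called genes and the smallest p of each list, overlapping genes and nearest tested neighbours; other genes named were chosen after their values were seen. Alternatives were median-ratio, library-total and deposited scales, other filters, pseudocounts of 0.1 and 10, no intensity trend, an adjusted p under 0.01, the replicate number as a block, and leaving out each library.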

Additional observations from a re-analysis of the deposited data

How the results depend on the processing

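Across the scalings, the lack of a filter, both pseudocounts and each library left out, the sign of every tested member's estimate was kept, except that of ID2, which ran from -0.016 without control replicate 1 to 1.02 without control replicate 2. The median of all genes moved by less than 0.1 between scalings. The count of 1 member called was unchanged under median-ratio and library-total scaling, both other filters and both pseudocounts. It was 0 on the deposited scale (BAMBI adjusted p = 0.208), without the intensity trend (0.49) and at an adjusted p under 0.01, where other pathway genes called were also 0 each time; limma then gave 1, 1 and 2 members and 5, 10 and 18 other pathway genes at an unadjusted p under 0.05. Of all genes tested, 55, 0 and 82 were called in these settings (1042, 3198 and 4033 unadjusted), the last fewer by construction; the cause of the others was not tested. Leaving out each library in turn gave 0 to 2 members, 1 to 5 other pathway genes and 132 to 681 genes in all.

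The titles share replicate numbers but do not say that a number marks a culture or day, and with 2 pairs the data cannot settle it. Across genes, the change from replicate 1 to 2 in control correlated with that in auxin (r 0.231, or 0.462 where the mean signal reached 50). With the replicate block, limma called 4 members (BAMBI, BMP4 at an adjusted p of 8.07e-05, ID2 at 3.18e-04 and SMAD6 at 0.015). It also called 20 other pathway genes and 4273 genes in all (10.8%). Limma's prior degrees of freedom were infinite in this fit, so each gene's spread came from the trend alone, not from its own libraries. Between libraries of the same replicate number, the log2 difference of ID2 was 0.84 for replicate 1 and 0.16 for replicate 2. That of SMAD6 was -0.54 and -0.36, that of BMP4 -0.51 and -0.56, and that of BAMBI -1.37 and -1.45. The edgeR and DESeq2 fits planned for recovered reads were not run, because the steps could not be taken as reads.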
